A study of Mus musculus with 4 samples.

Results

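The genes described here encode 8 small structural RNAs of the cell: Rn7sk (7SK RNA), Rn7s1 and Rn7s2 (both 7SL RNA), Rpph1 (the RNA of RNase P), Rmrp (the RNA of RNase MRP), the Y RNAs Rny1 and Rny3, and Terc (telomerase RNA). They were picked by name, as the entries whose Ensembl identifier maps to these symbols, and are 8 of the 43346 gene entries in each library. Total RNA was sequenced from 2 libraries of monocytes (MON) and 2 libraries of neutrophils (NEU) of adult C57BL6 mice (peripheral blood), with no treatment or engineered allele named in either group. Both cell types came from Ficoll-separated blood. The monocytes are labelled Gr-1+Mac-1+ and were sorted from the mononuclear layer, while the neutrophils came from the pellet once the red cells had been lysed, with no sort named. The study's supplement gives the monocyte gate as Ly6g- and CD11b+ and lists the neutrophils as unsorted. The comparison asks how the RNA of these phagocytes differs. The supplement gives the mice as male. It describes replicates either as cells of separate groups of mice on separate days, or as sorter aliquots of a shared group processed apart. It does not say there which holds for these libraries. Nothing in the labels ties a library to its own animals, so p-values measure the spread between libraries alone, which may be technical.

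RNA polymerase III makes short, abundant noncoding RNAs, most of which work inside RNA-protein particles. 7SK RNA holds the kinase complex P-TEFb, which releases paused RNA polymerase II, in an inactive form together with the proteins Hexim1, Larp7 and Mepce. 7SL RNA is the scaffold of the signal recognition particle, which carries ribosomes making secreted and membrane proteins to the endoplasmic reticulum. RNase P trims the front end of transfer RNA precursors, RNase MRP takes part in ribosomal RNA maturation, and both share most of their proteins. Y RNAs bind the Ro60 and La proteins. Telomerase RNA carries the template for telomere repeats and, unlike the others, is made by RNA polymerase II.

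Sequences on which the measurements turn were taken from the GENCODE M21 transcripts of mm10 (GRCm38). The annotated transcripts of the 7SL genes are the same letter for letter over all 300 bases, with 0 differences. Both genes lie on chromosome 12, Rn7s1 on the plus strand and Rn7s2 on the minus strand, with 201587 bases between them. No read that falls within these M21 transcripts can be given to one of the genes by its letters.

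The Y RNA genes are shown whole because they are shorter than the mean sequenced fragment, on which their TPM depends. Rny3 (102 bases) lies at chr6:47781624-47781725 on the plus strand and Rny1 (112 bases) at chr6:47788069-47788180 on the minus strand, 6343 bases apart. The capitals mark the run of T at the end of each, the kind of run at which RNA polymerase III stops. Over their whole length the Y RNA transcripts were 72.3% identical. Rmrp and Rpph1, which share proteins, were 50.8% identical. That is no more than for other pairs of members, such as Rn7sk with Rn7s1 (52.6%) or with Rmrp (51.1%).
Rny1: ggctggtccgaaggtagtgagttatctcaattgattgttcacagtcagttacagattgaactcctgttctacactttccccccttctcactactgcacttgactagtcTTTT
Rny3: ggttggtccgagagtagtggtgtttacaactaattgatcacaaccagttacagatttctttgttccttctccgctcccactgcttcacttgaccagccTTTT

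Of the 8 annotated transcripts, these Y RNAs alone ended in TTTT, as did 21.2% of 2326 annotated small RNA transcripts of the same release (misc_RNA, snRNA, rRNA and ribozyme). The Y RNAs also had the lowest G+C content, at 43.8% for Rny1 and 45.1% for Rny3, while the other members ran from 58.0% (Rn7sk) to 67.1% (Rpph1 and Terc). Rn7sk (331 bases, chr9:78175303-78175633, minus strand) held the letters GATC, which read the same on both strands, at bases 13, 42 and 64. Such letters in the first hairpin of 7SK RNA are known as the contact of Hexim1, and they stand in capitals in the first 80 bases, at chr9:78175554-78175633. Of 341 small RNA transcripts of at least 250 bases, 74.8% held GATC at least once and 21.1% held it 3 or more times. Terc (423 bases, chr3:96414437-96414859, minus strand) held the telomere template letters CTAACCCT, in capitals below, once at bases 29 to 36, and 1.17% of the same 341 transcripts held them. Rmrp (271 bases, chr4:43492788-43493058) and Rpph1 (319 bases, chr14:50807449-50807767) both lie on the minus strand.
Rn7sk first 80 bases: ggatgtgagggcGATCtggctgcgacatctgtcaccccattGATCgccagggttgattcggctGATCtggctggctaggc
Terc first 60 bases: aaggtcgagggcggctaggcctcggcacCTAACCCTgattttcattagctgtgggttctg

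Expected counts, the read numbers that RSEM assigns to each gene, summed to 20549572 to 26076261 per library. Levels are given as CPM, counts divided by these totals and scaled alike in every library, and fold changes as log2 of monocyte over neutrophil ± SE from edgeR. Sums of marker genes set the groups apart: 6 monocyte markers summed to 5161 to 5506 CPM in the monocyte libraries against 707 to 717 CPM in the neutrophil libraries, and 6 neutrophil markers to 89.5 to 106 and 6903 to 7047 CPM, with Ly6g at 0 in the monocyte libraries. Markers of other cells moved with the groups as well. NK cell markers (5 genes) summed to 1941 to 2009 CPM in the monocyte libraries against 21.1 to 21.4 CPM in the others, and B cell markers (5 genes) to 263 to 326 and 1770 to 1804 CPM. Red cell markers (5 genes) summed to 6206 to 6610 and 8084 to 8652 CPM, platelet markers to 42.7 to 45.7 and 72.5 to 79.0 CPM with Gp9 at 0 in the monocyte libraries, and T cell markers to 75.4 to 82.3 and 67.9 to 68.2 CPM. The part of these cells in the small RNA levels was not tested. In bulk RNA, fewer cells of a type and less RNA per cell cannot be told apart.

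The small RNAs fell into 3 ranges of level. Rn7sk, Rn7s1 and Rn7s2 stood between 12489 and 47569 CPM in every library, Rmrp and Rpph1 between 1061 and 3123 CPM, and Rny1, Rny3 and Terc between 0.195 and 9.87 CPM. As deposited, Rn7s1 was the gene with the most reads of all in both monocyte libraries, and Rn7s2 in both neutrophil libraries. All 8 together held 8.25% and 7.45% of the reads in monocyte replicates 1 and 2, and 10.6% and 8.82% in neutrophil replicates 1 and 2. Rn7sk and the 7SL genes made up 95.02% to 95.82% of those reads, and 98.6% to 99.5% of all reads of genes annotated as misc_RNA. The members' share of reads was higher in both neutrophil libraries, at 9.69 ± 1.23% (SD, n = 2) against 7.85 ± 0.56%. An exact permutation test of 2 libraries against 2 cannot go below p = 0.333, so shares are described without a test.

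**Figure D1:**
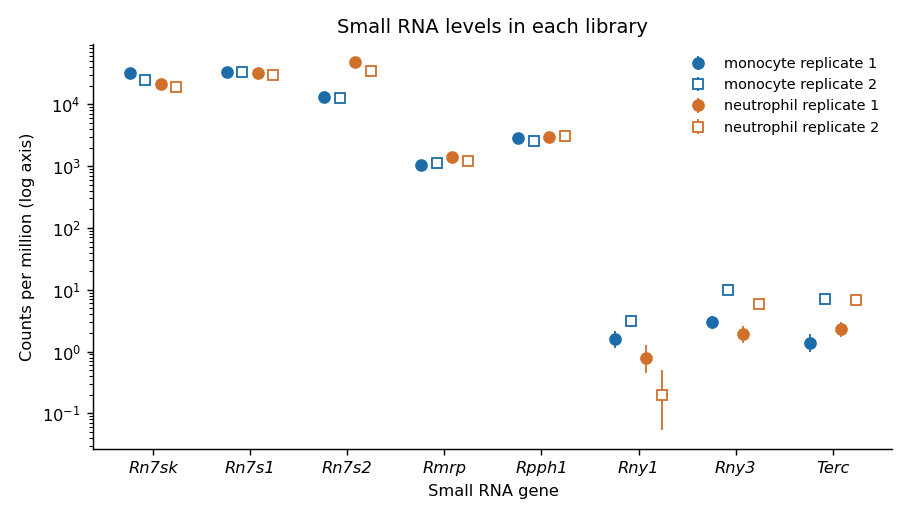
CPM (log axis) of each small RNA gene in the 4 libraries, with circles for replicate 1, squares for replicate 2, blue for monocytes and orange for neutrophils, and bars for the exact 95% counting interval. The 7SK and 7SL genes lie between 12489 and 47569, Rmrp and Rpph1 between 1061 and 3123, and Rny1, Rny3 and Terc at or below 9.87.

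Counts and TPM, a transcript level per effective length scaled to the same sum in each library, ranked the members with the fewest reads very differently. Rny3 had 77 and 252 reads in monocytes and 42 and 123 in neutrophils, which ranked it 10318, 7841, 11282 and 9112 among gene entries by count. Its TPM was 641 and 1796 in monocytes and 313 and 765 in neutrophils, which ranked it 72, 47, 89 and 62. Terc had similar numbers of reads, 36 and 184 in monocytes and 50 and 138 in neutrophils, but a TPM of only 1.30 and 5.84, and 2.0 and 5.37. In monocyte replicate 1 the count of Rny3 was 2.14 times that of Terc and its TPM 493 times, and in neutrophil replicate 2 the ratios were 0.891 and 142. A single read was worth 6.22 to 8.33 TPM for Rny3, 3.01 to 3.90 TPM for Rny1 and 0.0317 to 0.04 TPM for Terc. With a level per kb of annotated length in place of effective length, Rny3 stood at 3.48 to 8.87 times Terc. By that scale the level of Rny3 was 0.00369 to 0.0235 times that of Rmrp, while by TPM it was 0.11 to 0.853 times.

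**Figure D2:**
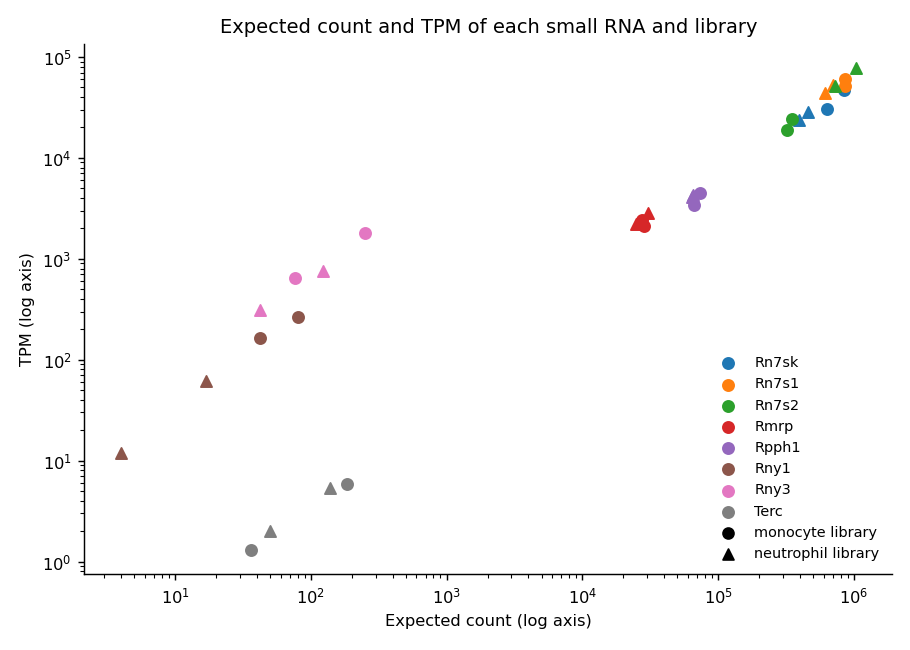
Expected count against TPM (both log axes) for the 8 small RNAs, a point per library, with circles for monocytes and triangles for neutrophils. Rny3 and Terc have counts from 36 to 252, but Rny3 lies between 313 and 1796 TPM and Terc between 1.30 and 5.84.

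The gap followed the effective length that RSEM gave each gene. For entries of at least 5000 bases the effective length was shorter than the annotated length by 159 to 176 bases, a measure of the mean fragment. Rny3 kept an effective length of 1.07 and 1.16 bases in monocytes and 1.39 and 1.66 in neutrophils, which is 1.05% to 1.63% of its 102 bases, and Rny1 kept 2.29 to 3.42 of 112 bases. The share rose with length through 37.5% to 42.8% for Rmrp, 42.7% to 47.8% for the 7SL genes, 45.8% to 50.8% for Rpph1 and 47.6% to 52.5% for Rn7sk to 58.6% to 62.6% for Terc. For each of the 8, monocyte replicate 1 had the lowest share and neutrophil replicate 2 the highest. For Rny3 the mean effective length of the monocyte libraries was 0.731 times that of the neutrophil libraries, and for Terc 0.973 times, so the same counts give a larger fold toward monocytes in TPM for Y RNAs than for Terc.

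**Figure D3:**
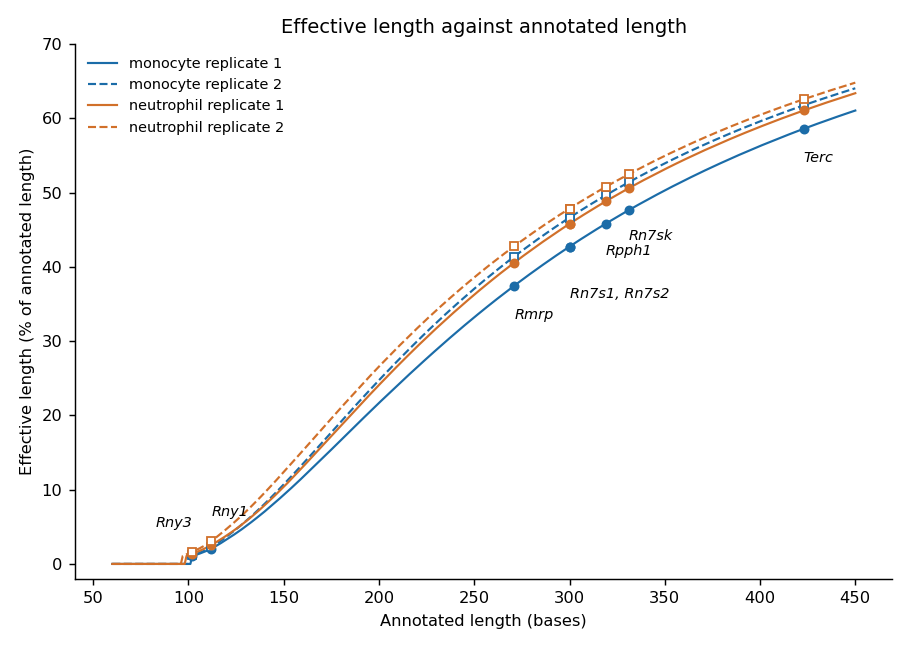
Effective length as a percent of annotated length, against annotated length in bases. Each library has a line over entries with a single transcript in the range of lengths shown, with the 8 small RNAs as points. Rny3 and Rny1 sit at the foot of each curve, at 1.05% to 3.05%, and Terc at 58.6% to 62.6%.

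TPM also depends on the other short RNAs of a library, since it sums to the same total in each. Genes annotated as snRNA held 60.5% to 71.2% of all TPM but 7.88% to 11.9% of reads, while protein-coding genes held 8.04% to 10.3% of TPM and 71.5% to 76.4% of reads. The 8 members held 14.0% and 10.8% of TPM in monocytes and 16.6% and 12.6% in neutrophils, so the groups overlapped. By TPM the order of the members was Rn7s1, Rn7sk, Rn7s2, Rpph1, Rmrp, Rny3, Rny1 and Terc in both monocyte libraries. In the neutrophil libraries Rn7s2 came first, followed by Rn7s1 and Rn7sk, with the rest in the same order. In monocytes the spreads of Rn7s1 (55465 ± 6356 TPM, SD, n = 2) and Rn7sk (39117 ± 11952 TPM) overlapped between libraries. Within each monocyte library Rn7s1 was higher, at 59960 and 50970 against 47568 and 30666 TPM. In neutrophils the spreads of Rn7s2 (64564 ± 18383 TPM) and Rn7s1 (48229 ± 6580 TPM) overlapped as well. Within each neutrophil library Rn7s2 was higher, at 77563 and 51565 against 52882 and 43576 TPM. The order of Rn7s1 and Rn7s2 follows the deposited split of 7SL reads. Rpph1 stood above Rmrp in every library, at 3444 to 4513 against 2106 to 2852 TPM. Per kb of annotated length the order was the same except that Terc (15.9 CPM per kb) passed Rny1 (1.74 CPM per kb) in neutrophil replicate 2.

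7SK RNA was higher in monocytes. Rn7sk had 839523 and 629500 reads in monocytes, or 32195 and 24649 CPM, and 457066 and 396200 reads in neutrophils, or 21126 and 19280 CPM. Both monocyte libraries lay above both neutrophil libraries, and monocyte replicate 1 stood apart from replicate 2 by more than the neutrophil libraries did from each other. The log2 fold change was 0.49 ± 0.13 (1.41-fold, edgeR quasi-likelihood test, adjusted p = 0.03). Without monocyte replicate 1 it was 0.27, from a fit that leaves 1 monocyte library. Limma on log2(TPM + 1) gave 0.57 (adjusted p = 0.344) and edgeR with effective length as an offset 0.53 (adjusted p = 0.0536), neither of them a call. The SD of the read assignment was 28.2 to 94.2 reads, at most 0.0125% of the count. The annotation holds 11 other genes at least 90% identical to Rn7sk over at least 50% of its length, and 6 of them had reads, which summed to 0.186% to 0.666% of the reads of Rn7sk and its copies. The copy with most reads, Gm24447, equals Rn7sk over 241 aligned bases with 0 mismatches and had 4859 and 3544 reads in monocytes and 647 and 837 in neutrophils, a log2 fold change of 2.20 ± 0.21 (adjusted p = 0.000861). The SD given for Rn7sk is small beside the reads of Gm24447, but reads that lie wholly within the shared 241 bases cannot be told apart by their letters, so the values of Gm24447 remain uncertain.

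7SL RNA was higher in neutrophils when its genes were summed. Rn7s1 and Rn7s2 together had 46367 and 46184 CPM in monocytes, and 80001 and 64569 CPM in neutrophils. The monocyte libraries were nearly level, and both neutrophil libraries lay above them. The log2 fold change of the sum was -0.64 ± 0.10 (1.56-fold higher in neutrophils, edgeR, adjusted p = 0.00548), and it ran from -0.51 to -0.81 when each library was left out in turn. With limma on log2(TPM + 1) it was -0.54 (adjusted p = 0.457). The ratio of 7SK to 7SL reads within a library, which no scaling changes, was 0.694 and 0.534 in monocytes and 0.264 and 0.299 in neutrophils.

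**Figure D4:**
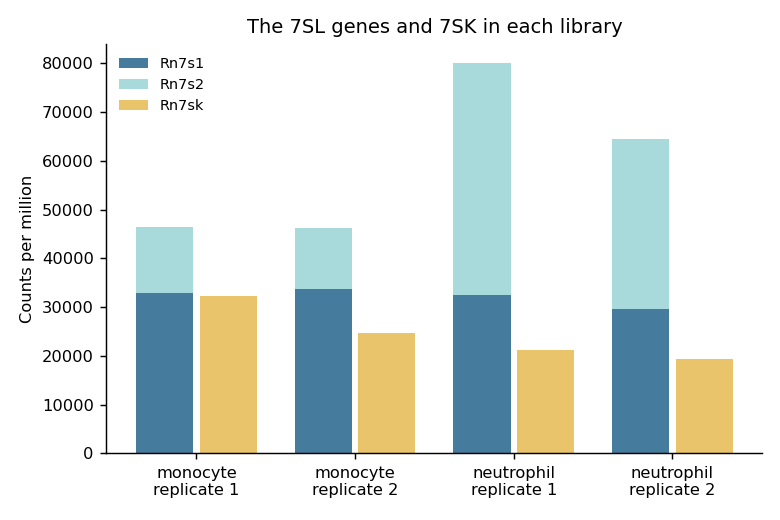
CPM of Rn7s1 and Rn7s2, stacked, and of Rn7sk beside them in the 4 libraries. The 7SL stack reaches 46367 and 46184 in monocytes and 80001 and 64569 in neutrophils, while Rn7sk falls from 32195 and 24649 to 21126 and 19280.

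Taken as separate entries the 7SL genes behaved differently, although their transcripts have the same letters. Rn7s1 stood at 33001 and 33695 CPM in monocytes and 32432 and 29573 CPM in neutrophils, with a log2 fold change of 0.10 ± 0.07 (adjusted p = 0.279). Rn7s2 stood at 13366 and 12489 CPM in monocytes and at 47569 and 34995 CPM in neutrophils, with a log2 fold change of -1.68 ± 0.15 (3.19-fold, adjusted p = 0.000609). The part of the pair given to Rn7s1 was thus 71.2% and 73.0% in monocytes but 40.5% and 45.8% in neutrophils. RSEM's own SD of the counts was 6901 to 14341 reads for these genes, and 0.52 to 1.03 percentage points for the part given to Rn7s1, so the difference in the split was larger than that SD. With posterior mean counts, which average over possible assignments, the log2 fold change of Rn7s1 was -0.003 and that of Rn7s2 -1.49. A further 7SL gene, Rn7s6, is 98.6% identical to Rn7s1 over 214 bases and had 13706 and 6835 reads in monocytes and 30039 and 6533 in neutrophils, without a call (log2 fold change -1.10 ± 0.68, adjusted p = 0.25). Its groups overlapped. The transcripts compared here are those of GENCODE M21, while the study names GENCODE M4 for its levels, and which bases its models of these genes held is not known here. The sum is therefore given as the 7SL value, and the separate values of Rn7s1 and Rn7s2 only as deposited.

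The RNAs of RNase P and RNase MRP did not pass the edgeR test between the cell types. Rpph1, which is itself the catalyst of RNase P, had 2832 and 2577 CPM in monocytes and 3011 and 3123 CPM in neutrophils. The groups did not overlap, and the log2 fold change was -0.18 ± 0.08 (adjusted p = 0.119). Rmrp had 1061 and 1116 CPM in monocytes and 1400 and 1210 CPM in neutrophils. Its groups did not overlap either, and the log2 fold change was -0.26 ± 0.09 (adjusted p = 0.0716). The DESeq2 test called both, at an adjusted p of 0.0314 for Rpph1 and 0.0146 for Rmrp, and edgeR without a filter on low counts called Rmrp (adjusted p = 0.0227). Their reads were assigned with an SD of 0, and no other gene annotated as misc_RNA, snRNA, rRNA or ribozyme was at least 90% identical over 50% of either. GENCODE M21 has a further entry named Rmrp, typed as lincRNA, that overlaps it on the same strand and was not used here. In reads, Rpph1 had 64177 to 73844 per library and Rmrp 24869 to 30281.

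The Y RNAs had few reads in these libraries, while their TPM rests on effective lengths of a few bases. Rny1 had 42 and 81 reads in monocytes and 17 and 4 in neutrophils, or 1.61 and 3.17 CPM, and 0.786 and 0.195 CPM. Both monocyte libraries lay above both neutrophil libraries, with exact 95% counting intervals of 1.16 to 2.18 CPM for monocyte replicate 1 and 0.458 to 1.26 CPM for neutrophil replicate 1, which overlap. The log2 fold change was 2.27 ± 0.99 (adjusted p = 0.121), so the spread between libraries left it uncalled. It ran from 1.58 to 3.56 when each library was left out, and was called without monocyte replicate 1 (2.66, adjusted p = 0.0177) and with limma on log2(TPM + 1) (2.87, adjusted p = 0.0368). Rny3 had 2.95 and 9.87 CPM in monocytes and 1.94 and 5.99 CPM in neutrophils. The libraries of each group differed by more than the groups did, and the log2 fold change was 0.69 ± 0.78 (adjusted p = 0.523). It turned to -0.45 without monocyte replicate 2 and rose to 1.30 without monocyte replicate 1 (adjusted p = 0.0438). Intervals cover counting error only, since reads of amplified fragments are not independent molecules.

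Telomerase RNA did not differ beyond the spread. Terc had 1.38 and 7.20 CPM in monocytes and 2.31 and 6.72 CPM in neutrophils. The groups overlapped entirely, and replicate 2 of each group was the higher library, as for Rny3. The log2 fold change was -0.07 ± 0.90 (adjusted p = 0.957). It was -1.73 without monocyte replicate 2 (adjusted p = 0.04), 0.66 without monocyte replicate 1 and 0.88 without neutrophil replicate 2, so a single library set its direction.

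In the edgeR fit all 8 members passed the filter on low counts, and 2 of 8 were called, Rn7sk toward monocytes and Rn7s2 toward neutrophils. With the 7SL genes summed, 1 was called toward monocytes and 1, the sum, toward neutrophils. The medians below use the 7SL genes as separate entries. Over all 14309 tested genes 42.6% were called, 20.8% higher in monocytes and 21.8% higher in neutrophils. Limma on log2(TPM + 1) called Rny1 toward monocytes and Rn7s2 toward neutrophils, where 43.5% of 9277 genes were called, 24.1% and 19.4% in the same order. The members' median log2 fold change was 0.02, beside -0.06 over all tested genes, and their median absolute value 0.38 beside 0.76. The set of called members changed when a library was left out. Such a fit leaves 1 library in a group, so its calls are not counted here. Of 2312 other annotated short structural RNA genes (misc_RNA, snRNA, rRNA and ribozyme), 268 had a read and 72 could be tested. Of these 72, 6 were called toward monocytes and 16 toward neutrophils, and the median was -0.34.

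**Figure D5:**
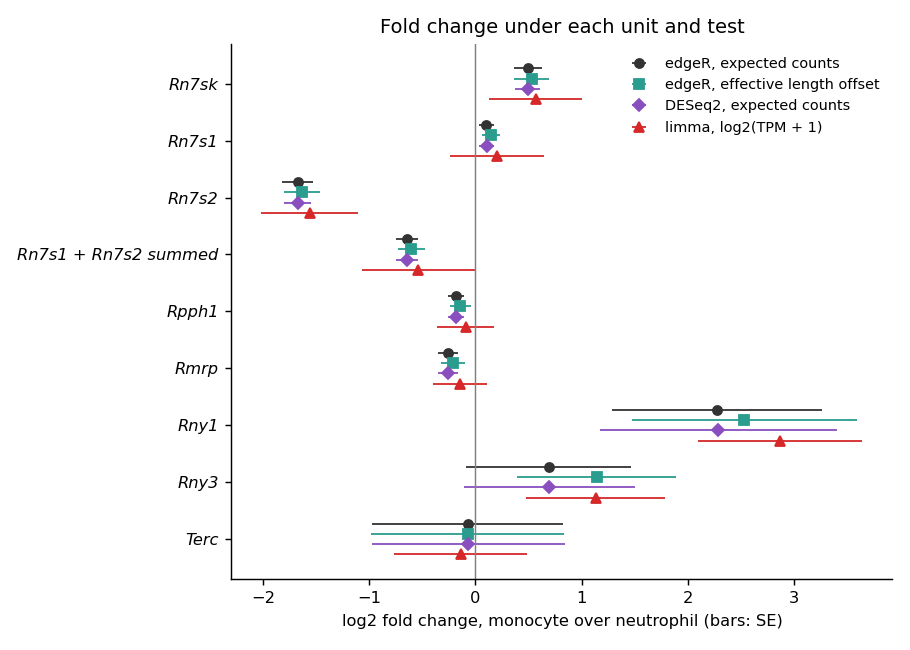
Log2 fold change of monocyte over neutrophil with SE bars for each small RNA and for the summed 7SL genes, under edgeR on expected counts, edgeR with an effective length offset, DESeq2 and limma on log2(TPM + 1). Rn7sk lies between 0.49 and 0.57, Rn7s2 between -1.68 and -1.56 and the sum between -0.64 and -0.54, and the bars of Terc cross 0 in every fit shown.

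Protein genes linked to these RNAs, by their particles or by RNA polymerase III, are called partner genes here. They were taken from 7 lists with 83 genes, of which 80 could be tested. Of these, 24 were higher in monocytes and 11 higher in neutrophils, beside the 20.8% and 21.8% of all tested genes. Both numbers changed when a library was left out. Such a fit leaves 1 library in a group, so its counts of calls are not given here. The called genes named here had adjusted p-values of 0.000491 to 0.0489. Limma on log2(TPM + 1) tested only genes of at least 1 TPM in 2 libraries, and so fewer genes of most lists.

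Among 18 subunits of RNA polymerase III, 6 rose toward monocytes and 1 toward neutrophils, beside 20.8% and 21.8% of all tested genes, and 11 had no call. The median log2 fold change was 0.61. With limma on log2(TPM + 0.1) the calls numbered 3 and 0. The call toward neutrophils was also absent with the effective length offset. It was absent too with limma on log2(TPM + 1), which tested 16 of the 18. The largest changes were in Polr2k (27.8 and 23.7 against 10.1 and 10.2 CPM, 1.34 ± 0.18) and Polr2e (1.09 ± 0.21), subunits that RNA polymerases I and II also use. Polr3b, the second largest subunit of the polymerase III core, stood at 40.2 and 41.5 CPM in monocytes and 58.5 and 52.1 CPM in neutrophils (-0.44 ± 0.12). Polr3f, the subunit with the highest level, was not called (-0.05 ± 0.11). Of 18 tested factors that start or restrain the polymerase, 2 were called toward monocytes and 5 toward neutrophils, and the median was -0.18. Limma on log2(TPM + 0.1) called 2 toward neutrophils. Those higher in neutrophils included Gtf3c1, the largest subunit of the factor TFIIIC (43.8 and 42.6 against 88.1 and 89.1 CPM, -1.04 ± 0.10), and Pou2f1 (Oct-1), which binds the distal element of 7SK-type promoters (-1.14 ± 0.09). Snapc5, a subunit of the complex that binds the proximal element of such promoters, was higher in monocytes (34.2 and 29.6 against 13.1 and 13.0 CPM, 1.29 ± 0.16). So was Gtf3a, the 5S ribosomal RNA gene factor (0.79 ± 0.14), while Bdp1, the most abundant of the list, was not called (-0.20 ± 0.11).

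Partners of 7SK RNA were called in both directions, near the shares of all tested genes (20.8% toward monocytes and 21.8% toward neutrophils). Of 7 genes of the 7SK particle and P-TEFb, 1 was called toward monocytes, 2 toward neutrophils and 4 in neither direction, and the median was -0.14. Toward neutrophils, limma called 1 of 6 tested on log2(TPM + 1) and 0 of 7 on log2(TPM + 0.1). The offset fit called 1. Larp7, which covers the end of 7SK RNA, stood at 51.7 and 50.5 CPM in monocytes and 25.8 and 25.1 CPM in neutrophils (2.01-fold higher in monocytes), the direction of Rn7sk itself. Mepce, the enzyme that caps 7SK RNA, stood at 19.9 and 14.8 CPM in monocytes and 28.3 and 34.3 CPM in neutrophils (-0.85 ± 0.21). Ccnt2, a cyclin of P-TEFb, was also higher in neutrophils (116 and 91.0 against 205 and 202 CPM, -0.97 ± 0.13).

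Partners of 7SL RNA were higher in monocytes or not called, while the summed RNA was higher in neutrophils. Of 9 tested genes of the signal recognition particle and its receptor, 5 were called toward monocytes and 0 toward neutrophils by edgeR. Over all tested genes the shares were 20.8% and 21.8%. The median of the 9 was 0.43. Toward monocytes DESeq2 also called 5, but limma called 3 on log2(TPM + 1) and 2 on log2(TPM + 0.1), and edgeR with the effective length offset called 2. Each of these called 0 toward neutrophils, and 0 passed there at an unadjusted p under 0.05. Srp19 stood at 42.2 and 48.0 CPM in monocytes and 21.2 and 20.8 CPM in neutrophils (1.10 ± 0.14). Srp9, which binds the Alu-like end of 7SL RNA, changed by 0.89 ± 0.12, and Srp54c, a copy of the subunit that binds signal peptides, by 0.30 ± 0.08, with reads that its near-identical copies may share. Of 10 tested proteins of RNase P and RNase MRP, 4 were called toward monocytes and 1 (Pop1) toward neutrophils, and the median was 0.72. Toward neutrophils, limma called 0 of 6 tested on log2(TPM + 1) and 0 of 10 on log2(TPM + 0.1). The offset fit called 0 of 10. Pop4 stood at 27.7 and 29.3 CPM in monocytes and 9.06 and 10.3 CPM in neutrophils (1.56 ± 0.18).

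Of 8 genes listed as Ro, La and Y RNA binding proteins, 6 were called toward monocytes and 1 toward neutrophils, beside 20.8% and 21.8% of all tested genes. The median of the list was 0.48. Limma called 4 and 0 of 7 tested on log2(TPM + 1), and 2 and 0 of 8 on log2(TPM + 0.1). Trove2 (Ro60), the main Y RNA protein, stood at 8.09 and 8.42 CPM in monocytes and 18.8 and 21.4 CPM in neutrophils (-1.29 ± 0.21). Ssb (La), which binds the T run at the end of new polymerase III transcripts, stood at 267 and 242 CPM in monocytes and 137 and 123 CPM in neutrophils (0.97 ± 0.10). Hnrnpk, the most abundant of the list and a general RNA binding protein, changed by 0.60 ± 0.08. Zbp1 (1.02 ± 0.14) is on the list by its symbol, but the mouse gene of that name encodes a sensor of Z-form nucleic acid, so it is no Y RNA partner. It remains in the counts of this list and of all partner genes. Of 10 telomerase core and assembly genes, 1 (Tert) was called toward neutrophils and 0 toward monocytes by edgeR, with a median of -0.13. Tert had 0 reads in both monocyte libraries and 33 and 13 in the neutrophil libraries, so its call lies near the floor. Toward neutrophils, DESeq2 and the offset fit also called 1 each. Limma called 0 of 5 tested on log2(TPM + 1) and 0 of 10 on log2(TPM + 0.1). Toward monocytes, 3 passed at an unadjusted p under 0.05, and DESeq2 and limma on log2(TPM + 1) called 1 each. The most abundant, Zcchc8, was not called (-0.37 ± 0.15).

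The protein-coding genes that overlap a member or lie within 5 kb of it were also measured. Rps29, a ribosomal protein gene that starts on the other strand 109 bases from Rn7s1, stood at 283 and 314 CPM in monocytes and 111 and 108 CPM in neutrophils (1.44 ± 0.09, adjusted p = 0.000212), while Rn7s1 itself was not called. Nemf, 4017 bases from Rn7s2, was not called (-0.08 ± 0.08), nor was Ick, 3196 bases from Rn7sk (0.10 ± 0.50). Parp2, which starts 74 bases from Rpph1 on the other strand, had a value of 0.22 ± 0.13, not called. Ccnb1ip1 overlaps Rpph1 on the same strand and had 0 reads in all 4 libraries. Ccdc107 overlaps Rmrp on the other strand and had 129 to 212 reads beside the 24869 to 30281 of Rmrp, not called (-0.003 ± 0.36). Which strand was counted is not stated, so reads of Rmrp and Ccdc107 cannot be told apart for certain. Arhgef39, 3084 bases from Rmrp, had 14 to 31 reads and was not called (0.30 ± 0.88).

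Among 7666 protein-coding genes with a mean of at least 10 CPM, those whose log2 CPM ran most like Rn7sk over the 4 libraries were Klhdc10, Leprotl1 and Ywhab, at distances of 0.007, 0.019 and 0.035 log2 units after centring. Their log2 fold changes were 0.49 ± 0.18, 0.50 ± 0.18 and 0.51 ± 0.16, none of them called. For Rmrp, Kri1 and Kbtbd7 were among the 3 nearest, at distances of 0.026 and 0.032, with log2 fold changes of -0.24 ± 0.11 and -0.29 ± 0.13, also not called. With 4 libraries many genes can lie this close, and no shared role is implied.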

How the data were processed

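Per the labels, total RNA was DNase-treated, depleted of ribosomal RNA, primed with random hexamers and amplified by PCR, without molecular identifiers. The authors mapped reads to mm10 with STAR and ran RSEM, with GENCODE M4 named as the annotation. The deposited expected counts are RSEM's estimated read numbers per gene. The deposited TPM and FPKM are the authors' RSEM levels per effective length, and TPM sums to a fixed total over all entries, as does the posterior mean TPM. No source used here states the strand setting of the counting.

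Members were matched by identifier to GENCODE M21 on mm10, which also gave names, positions and sequences. Expected counts were rounded, filtered with filterByExpr, scaled by TMM and tested with edgeR 4.0.16 (quasi-likelihood, no covariate, all 4 libraries), with Benjamini-Hochberg adjustment over all 14309 tested genes and calls at an adjusted p under 0.05. Limma 3.58.1 and DESeq2 1.42.0 were alternatives. The tools were also run on simulated counts, which varied less between libraries than these data. That run therefore does not show how they perform at the spread seen here. Its limma input was CPM in place of TPM, and the effective length offset fit was not included. Copies were found with blastn 2.17.0, at identity limits (90% and 80%) chosen after the data were seen.

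The named genes are the members, the protein-coding neighbours within 5 kb, the 3 genes nearest in pattern to Rn7sk and Rmrp, and in each partner list up to 2 called genes per direction by fold change at a mean of at least 10 CPM plus the most abundant gene. Pop1 and Tert were named outside the rule, as single calls, after their values were seen. The members and lists were chosen with earlier results of these data known. Gtf3c2, Srp54b and promoter sequences of the members were not analysed here. The 7SL sequence and 1 gene near Rmrp in pattern are not reported here.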

Additional observations from a re-analysis of the deposited data

Results flagged for a closer look

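Reads were present in entries that no comparison here uses. Entries with a numeric identifier, which carry no gene name in the files, held 70 expected counts in monocyte replicate 1, 8 in monocyte replicate 2, 37 in neutrophil replicate 1 and 46 in neutrophil replicate 2. Spike-in control entries held 85 expected counts in monocyte replicate 1 and 16 in monocyte replicate 2, and 0 in both neutrophil libraries. Each is above the 3 counts that an observed count of 0 allows, and each is small beside the 20549572 to 26076261 counts of a library.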

How the results depend on the processing

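No paired analysis was possible because the replicate numbers follow deposit order only. Where limma on log2(TPM + 1) and log2(TPM + 0.1) was used, the log2 fold change of Rn7sk was 0.57 in both and that of the summed 7SL genes -0.54 in both, none called, that of Rn7s2 with log2(TPM + 0.1) was -1.56, not called, and that of Rny1 with log2(TPM + 1) was 2.87, called. An effective length offset gave 0.53 for Rn7sk, not called. Rn7s1 turned to -0.00298 with posterior mean counts, and to -0.64 when both 7SL genes were summed, which gives the value of the pair. Rmrp was called without a filter (-0.28), with a filter of 10 CPM in 2 libraries (-0.28) and with DESeq2 (-0.26), and Rpph1 with DESeq2 (-0.18). Rny1, Rny3 and Terc had no value under the filter of 10 CPM. When each library was left out in turn, Rmrp ran from -0.38 to -0.18, Rpph1 from -0.27 to -0.14, Rny1 from 1.58 to 3.56, Rny3 from -0.45 to 1.70 and Terc from -1.73 to 0.88.

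The number of members called higher in monocytes was 0 with log2(TPM + 0.1) and 0 with the effective length offset. The number higher in neutrophils was 2 without a filter, 2 with the filter of 10 CPM, 3 with DESeq2 and 0 with log2(TPM + 0.1). Both numbers also changed with a library left out, which leaves 1 library in a group. At an unadjusted p under 0.05, limma on log2(TPM + 0.1) had 1 member toward monocytes and 0 toward neutrophils, and the offset fit 1 toward monocytes. Partner genes higher in monocytes numbered 13 with log2(TPM + 0.1) and 12 to 30 with a library left out, and those higher in neutrophils 5 with log2(TPM + 1), 2 with log2(TPM + 0.1) and 5 to 18 with a library left out. As TPM per 100 TPM of protein-coding genes, the members stood at 126 in monocytes and 176 in neutrophils. The other 149 alternative values kept their direction and side of the threshold or, for counts and shares, stayed near the value reported. The causes of the shifts were not tested, except that summing changes the quantity itself. Rny1, Rny3 and Terc rest on 4 to 252 reads per library. For Rny3 and Terc the counting intervals of replicates did not overlap in either group, so the libraries differed by more than counting error.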
